A study of Rattus norvegicus with 13 samples.

Results

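Oxidative phosphorylation, the respiratory pathway of mitochondria, was followed through the nuclear genes for its subunits and assembly factors in rat frontal cortex. The members were chosen by name: a probe counted if its gene name in the array files started with Nduf, Sdh, Uqcr, Cox4 to Cox8, or Atp5. Of 90 such genes with 113 probes, 88 had a probe whose spots were well above background throughout at least 1 group of arrays, out of 17244 genes tested. Ndufaf2 and Cox8c were not well above background on any of the 13 arrays. The prefix also caught Cox4nb, which RefSeq now calls Emc8 and which encodes no respiratory protein. It was set aside, which left 87 members. They were 36 subunits of complex I, 4 of complex II, 7 of complex III, 15 of complex IV, 15 of complex V, 6 assembly or coupling factors, and 4 gene copies or pseudogenes. All 87 were well above background on every one of the 13 arrays.

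The series asked how head trauma alters cortical transcripts 1 month later in male rats of the Sprague–Dawley strain, in the secondary phase of the injury. The 4 groups were rotational trauma, a rapid head acceleration (3 arrays), its sham group (3 arrays), lateral fluid percussion trauma, a pressure pulse against the dura (3 arrays), and its sham group (4 arrays). All sham rats had the anaesthesia and the surgery of their model without the trauma. Each array held the RNA of 1 sample labelled as separate, and p-values measure the spread between these samples. The tissue is a piece of cortex with all its cell types, in which fewer cells of a type and less RNA per cell cannot be told apart.

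The respiratory chain passes electrons from NADH (complex I) and succinate (complex II) through ubiquinone to complex III, through cytochrome c to complex IV and on to oxygen, and complexes I, III and IV pump protons as they do so. Complex V, the ATP synthase, lets the protons flow back and makes ATP. Complexes I, III, IV and V mix subunits from nuclear genes with subunits from mitochondrial DNA, and complex II is nuclear alone. Neurons depend on this ATP for the ion pumps that restore their membrane potential.

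The levels below are log2 of the processed spot signal minus the 75th percentile of its array, so a level of 0 is that percentile, and a difference of 1 is a doubling. Differences were tested with limma over all 17244 genes, with Benjamini-Hochberg adjusted p-values and a threshold of 0.05. Between 67.0% and 74.1% of the spots of an array were well above background. The share was 67.0% to 72.5% in rotational trauma and 73.1% to 74.1% in its sham. It was 72.7% to 73.8% in percussion trauma and 67.6% to 69.4% in its sham. Trauma and sham thus did not overlap in either model, in opposite directions, and the part of this in the differences was not tested. All arrays of 1 model lay on 1 slide. The first of the 2 position numbers of an array on its slide differed between trauma and sham, in opposite order on the 2 slides. The second position number varied within every group. Markers of striatum, a region below the cortex, stood high on 2 of the 3 rotational sham arrays: the median of 5 such genes was 1.89 and 1.44 above the mean of all arrays on replicates 1 and 3, and 0.68 below it (-0.68) on replicate 2. On the other 10 arrays it lay between -0.71 and 0.48. Of the marker lists of other tissue, 6 of 6 genes of meninges had a higher mean in trauma than in sham in both models, with a median difference of 1.30 in the rotational and 1.33 in the percussion model. Their part in the results below was not tested.

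The members' genes lie on 20 chromosomes. Promoters, from 250 bases before to 50 after the start of the gene, were taken from RefSeq (GRCr8) and found by symbol for 74 of the 87 members. Each was searched on both strands for the letters of 5 motifs, which did not overlap one another in these promoters (0 overlaps). The letters AANATGGCG, of the YY1 type, stood in 23.0% of the members' promoters, against 3.0% of the 33469 promoters of the table and 3.7% of the 21851 promoters of protein-coding genes. The letters GCGCA and GCGC with 1 base of any kind between them, of the type read by NRF1 (nuclear respiratory factor 1), stood in 20.3%, against 4.3% of all and 5.7% of protein-coding promoters. The letters CCGGAAG, of the ETS type that GABP also reads, stood in 29.7%, against 8.7% and 10.7%. The letters TCAAGGTCA, of the ERR type, stood in 2.7%, against 0.4% and 0.4%. The TATA box letters TATAAA stood in 6.8% of the members' promoters, against 14.2% of all and 13% of protein-coding promoters. At least 1 of the 5 was found in 45 of the 74. Such a match describes the letters and is not a bound site. The letters CG occurred a median of 20 times in the members' promoters, against 11 times in those of protein-coding genes. The YY1, NRF1 and ETS letters contain CG, and the ERR and TATA box letters do not. The part of this in the shares was not tested. One promoter of each complex is printed 5′ to 3′, because together they hold the NRF1, ETS, YY1 and TATA box letters, and the capitals mark the motif letters on either strand.
Ndufs6, complex I, chr1:31797150-31797449, plus strand: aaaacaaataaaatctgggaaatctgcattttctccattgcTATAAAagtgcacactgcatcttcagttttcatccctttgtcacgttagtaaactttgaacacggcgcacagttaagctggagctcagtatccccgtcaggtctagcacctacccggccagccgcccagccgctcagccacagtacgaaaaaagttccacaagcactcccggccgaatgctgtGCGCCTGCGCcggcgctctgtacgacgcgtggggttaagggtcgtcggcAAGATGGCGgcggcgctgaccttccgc
Sdha, complex II, chr1:30764303-30764602, plus strand: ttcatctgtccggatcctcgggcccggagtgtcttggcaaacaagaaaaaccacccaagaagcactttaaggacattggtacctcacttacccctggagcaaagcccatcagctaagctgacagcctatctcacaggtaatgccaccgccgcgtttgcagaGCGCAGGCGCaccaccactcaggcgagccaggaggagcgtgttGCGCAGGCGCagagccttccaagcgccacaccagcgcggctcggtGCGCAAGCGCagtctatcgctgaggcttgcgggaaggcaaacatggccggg
Uqcrc1, complex III, chr8:118467973-118468272, plus strand: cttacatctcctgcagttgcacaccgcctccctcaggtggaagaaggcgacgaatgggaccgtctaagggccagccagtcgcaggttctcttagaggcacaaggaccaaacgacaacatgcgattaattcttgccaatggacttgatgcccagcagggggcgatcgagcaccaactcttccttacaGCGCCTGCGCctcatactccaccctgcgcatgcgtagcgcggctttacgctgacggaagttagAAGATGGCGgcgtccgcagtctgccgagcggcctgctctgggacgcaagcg
Cox4i1, complex IV, chr19:65630133-65630432, plus strand: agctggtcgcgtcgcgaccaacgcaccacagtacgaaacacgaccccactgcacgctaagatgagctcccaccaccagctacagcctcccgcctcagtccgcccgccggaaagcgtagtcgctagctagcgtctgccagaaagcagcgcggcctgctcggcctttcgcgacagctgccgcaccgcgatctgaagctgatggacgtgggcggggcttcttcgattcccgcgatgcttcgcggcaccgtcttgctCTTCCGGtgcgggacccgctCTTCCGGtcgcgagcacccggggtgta
Atp5j (Atp5pf in RefSeq), complex V, chr11:37375052-37375351, minus strand: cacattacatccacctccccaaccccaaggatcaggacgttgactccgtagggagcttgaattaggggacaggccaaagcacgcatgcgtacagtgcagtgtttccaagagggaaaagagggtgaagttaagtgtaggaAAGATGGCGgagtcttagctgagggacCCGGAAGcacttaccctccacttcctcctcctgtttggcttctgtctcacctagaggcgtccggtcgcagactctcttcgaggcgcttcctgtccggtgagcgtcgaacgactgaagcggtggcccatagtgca

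The Sdha promoter holds 3 matches to the NRF1 letters. Cox4i1 holds the ETS letters on the opposite strand in 2 places close to the start. In Ndufs6, Uqcrc1 and Atp5j the YY1 letters enclose an ATG. By complex, the YY1 letters stood in 11 of 33 promoters of complex I (33.3%) and in 0 of 12 of complex IV, and the NRF1 letters in 5 of 14 of complex V (35.7%) and 0 of 12 of complex IV. These counts are small and are given as a description. A neighbouring gene started on the opposite strand within 500 bases in 15 of the 74 members (20.3%), against 5.3% of protein-coding promoters. Cox4i1 shares its start region with Emc8 (148 bases apart), Atp5j with Gabpa, which encodes a subunit of GABP (163 bases), Sdha with Ccdc127 (80 bases) and Sdhd with Timm8b (96 bases).

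After rotational trauma no member passed the test. The count was 0 of 87, against 4 of 17244 genes (0.0232%), and at an unadjusted p under 0.05 it was again 0, against 6.60% of all genes. The median difference of the members was 0.019, against -0.006 over all genes. Of the members 58 had a higher and 29 a lower mean in trauma, and of all genes 52.2% had a lower one. Trauma and sham arrays did not overlap for 13 members, which is 14.9% of the members and 14.9% of all genes. Of these 7 were higher, as were 6.88% of all genes, and 6 lower, as were 8.03%.

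Complex I, which oxidises NADH, had a median difference of 0.032 after rotational trauma, with 26 of 36 subunits on the higher side. Ndufv1, which binds the flavin that takes the electrons from NADH, had levels of 5.10, 5.14 and 5.14 in rotational trauma, against 5.06, 5.18 and 5.02 in rotational sham. Ndufs7, an iron-sulfur subunit near the ubiquinone site, had levels of 4.02, 3.69 and 3.95 in rotational trauma, against 4.12, 4.07 and 4.05 in rotational sham. The Ndufv1 values were mixed between the groups. The Ndufs7 trauma values all lay below sham, at a difference of -0.19 (SE 0.16, adjusted p = 0.973). Ndufs8, another iron-sulfur subunit, had 1.70, 1.75 and 1.71 in rotational trauma, against 1.65, 1.63 and 1.61 in rotational sham, without overlap and with a difference of 0.091 (adjusted p = 0.973). The differences of Ndufb11, an accessory subunit of the membrane arm, and of Ndufa8 and the core subunit Ndufs1 were 0.11, -0.12 and -0.075.

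The other complexes also had medians near 0. Complex II, which oxidises succinate, had a median of 0.018, with 4 of 4 members on the higher side, and complex V one of 0.027, with 12 of 15. Complex III lay at -0.0055, with 3 of 7 higher, and complex IV at 0.0006, with 8 of 15. The 6 assembly and coupling factors had a median of -0.027, with 1 of 6 higher. Among the 4 copies and pseudogenes, all on the higher side with a median of 0.09, Ndufb4l1 had 1.82, 1.78 and 1.86 in rotational trauma, against 1.72, 1.58 and 1.69 in rotational sham, without overlap (difference 0.16, adjusted p = 0.912, the smallest of the members in this comparison). A copy shares sequence with its parent gene, and signal of the 2 on 1 probe cannot be told apart.

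**Figure D1:**
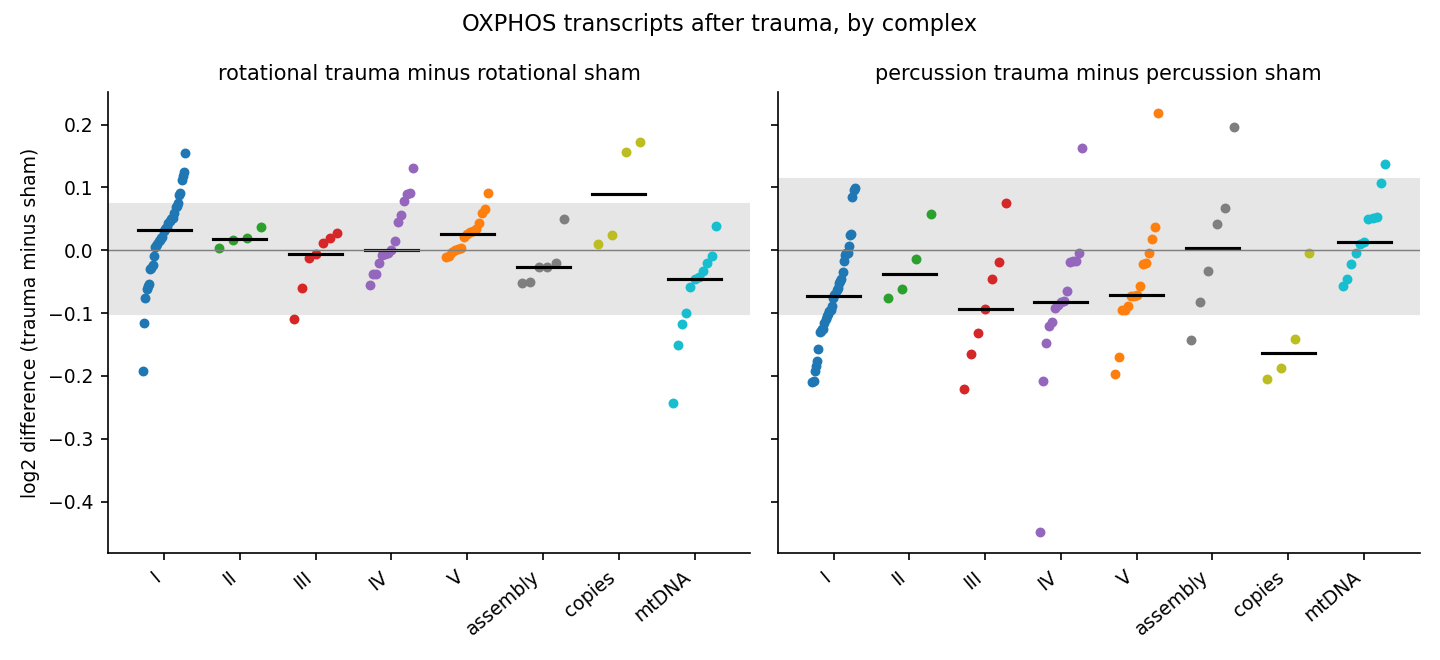
Each point is the log2 difference (trauma minus sham) of 1 gene, ordered within its complex, for rotational trauma (left) and percussion trauma (right); black lines are medians and the grey band holds the middle 50% of all genes. The medians of complexes I to V lie near 0 on the left (-0.0055 to 0.032) and below 0 on the right (-0.094 to -0.038), while the median of the 11 genes of mitochondrial DNA (mtDNA) is -0.046 on the left and 0.013 on the right.

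Percussion trauma also left no member past the threshold, with 0 of 87 called and 0% of all genes (0 of 17244). An unadjusted p under 0.05 was reached by 2 members, against 11.3% of all genes. The members' differences leaned to the lower side: 72 of 87 (82.8%) had a lower mean in trauma, against 51.2% of all genes, and their median was -0.073, against -0.0046 over all genes. Trauma and sham arrays were apart for 1 member, Sdha (1.15%, against 9.51% of all genes). The size of this median depended on single arrays: it was -0.029, -0.018 and -0.17 without percussion trauma replicates 1, 2 and 3, and -0.034 without percussion sham replicate 2. Medians of neuron markers (10 genes), against the mean of percussion sham, were -0.18, -0.17 and -0.017 on the percussion trauma arrays, and -0.069, 0.036, 0.018 and 0.06 on the percussion sham arrays. The neuron markers were mixed, with 6 lower and 4 higher in trauma and a median difference of -0.035. Their part in this lean was not tested.

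Of complex I, 30 of 36 subunits were on the lower side after percussion trauma, with a median of -0.073. Ndufs6, a zinc-binding accessory subunit, had levels of 3.73, 3.81 and 4.07 in percussion trauma, against 4.03, 4.15, 4.06 and 3.99 in percussion sham. Percussion trauma replicates 1 and 2 lay below all sham arrays and replicate 3 among them, and the difference was -0.18 (SE 0.08, unadjusted p = 0.0456, adjusted p = 0.431). A second Ndufs6 probe differed by -0.21. The array files place the first probe on chromosome 2 of rn4, while RefSeq has the gene on chromosome 1 of GRCr8, and whether a copy of the gene shares its signal was not tested. Ndufb7, an accessory subunit of the membrane arm, had 3.92, 3.85 and 4.13 in percussion trauma, against 4.07, 4.27, 4.18 and 4.05 in percussion sham, again with replicate 3 alone inside the sham range (difference -0.18, adjusted p = 0.442). Ndufv1 differed by -0.11 and Ndufs1 by -0.07. Ndufa10l1, a copy of Ndufa10, had 3.90, 4.01 and 4.17 in percussion trauma, against 4.12, 4.35, 4.12 and 4.34 in percussion sham (difference -0.20, SE 0.09, unadjusted p = 0.0397, adjusted p = 0.422).

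Complex IV, the oxidase that reduces oxygen, had 14 of 15 members on the lower side and a median of -0.082. Cox4i1, its main regulatory subunit, had levels of 6.65, 6.60 and 6.85 in percussion trauma, against 6.79, 6.95, 6.76 and 6.76 in percussion sham (difference -0.11, adjusted p = 0.595). Cox7b, a small subunit, had 4.22, 4.27 and 4.75 in percussion trauma, against 4.46, 4.80, 4.66 and 4.57 in percussion sham (difference -0.21, adjusted p = 0.546). In both genes replicates 1 and 2 of the trauma group were the lowest arrays and replicate 3 was among the highest. Cox6a2, the isoform typical of heart and muscle, had the widest confidence interval of the members, with -0.22, 0.32 and 0.71 in percussion trauma, against 0.51, 0.98, 0.56 and 0.83 in percussion sham. Its difference was -0.45, with a 95% confidence interval of -1.02 to 0.12 and an adjusted p of 0.537.

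Complexes III and V leaned the same way, with 6 of 7 members lower (median -0.094) and 12 of 15 lower (median -0.07). Atp5h, subunit d in the stalk of the ATP synthase, had levels of 4.37, 4.2 and 4.60 in percussion trauma, against 4.55, 4.74, 4.54 and 4.52 in percussion sham (difference -0.20, adjusted p = 0.457). Atp5b, the catalytic beta subunit of the same enzyme, had 3.07, 3.30 and 2.88 in percussion trauma, against 2.64, 2.86, 2.99 and 2.97 in percussion sham (difference 0.22, adjusted p = 0.471). Its groups overlapped, and here replicate 3 was the lowest of the trauma arrays, the reverse of Atp5h. Sdha, the flavin subunit of complex II, had 3.33, 3.37 and 3.34 in percussion trauma, against 3.23, 3.30, 3.31 and 3.32 in percussion sham (difference 0.058, adjusted p = 0.714), and was the member without overlap. Atp5sl, now called Dmac2 and an assembly factor of complex I, had -0.45, -0.49 and -0.89 in percussion trauma, against -0.68, -0.76, -0.97 and -0.82 in percussion sham (difference 0.20, adjusted p = 0.535).

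**Figure D2:**
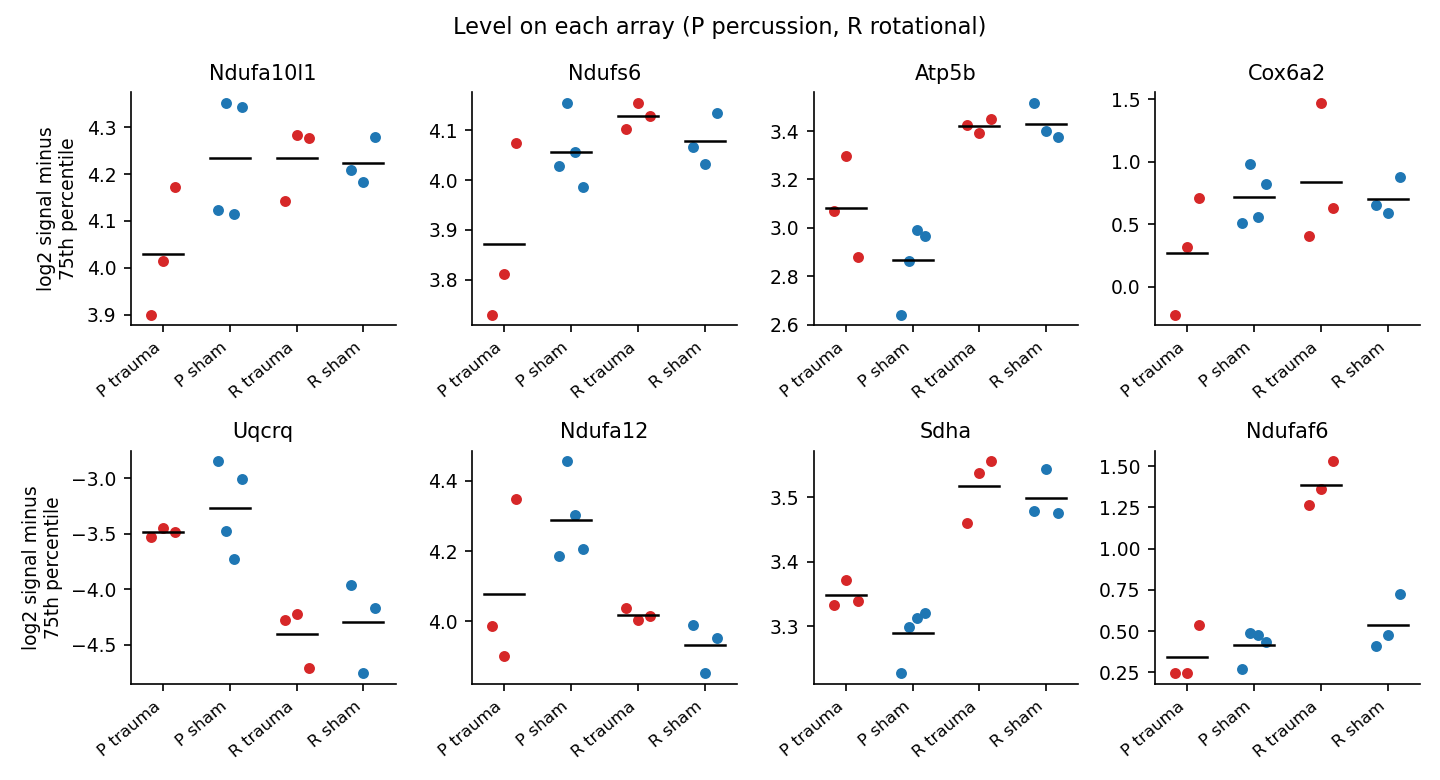
Levels (log2 signal minus the 75th percentile of the array) of 7 members and of Ndufaf6 on each array, with the trauma groups in red, the sham groups in blue and the group mean as a line; each panel has its own axis. Ndufs6 shows percussion trauma replicates 1 and 2 (3.73 and 3.81) below the sham arrays and replicate 3 (4.07) among them, and Ndufaf6 shows all 3 rotational trauma arrays (1.26 to 1.53) above all others.

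The confidence intervals give the size that a difference could have at this number of arrays. After rotational trauma the 95% confidence interval lay within 0.5 on the log2 scale (1.41-fold) of no difference for 84 of 87 members (96.6%, against 67.8% of all genes), with Cox6a2, Ndufs7 and Uqcrq outside. After percussion trauma it did so for 85 of 87 (97.7%, against 68% of all genes), with Cox6a2 and Uqcrq outside. Within 0.25 (1.19-fold) it lay for 44 members in the rotational and 30 in the percussion model. For Atp5a1, the alpha subunit of the ATP synthase, the interval after rotational trauma ran from -0.16 to 0.16, and after percussion trauma from -0.13 to 0.17. For Uqcrfs1, the Rieske iron-sulfur protein of complex III, it ran from -0.12 to 0.18 and from -0.16 to 0.12. Sdhb, the iron-sulfur subunit of complex II, had -0.19 to 0.23 and -0.27 to 0.12. Cox5a, a small subunit of complex IV, had -0.22 to 0.22 and -0.21 to 0.20.

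**Figure D3:**
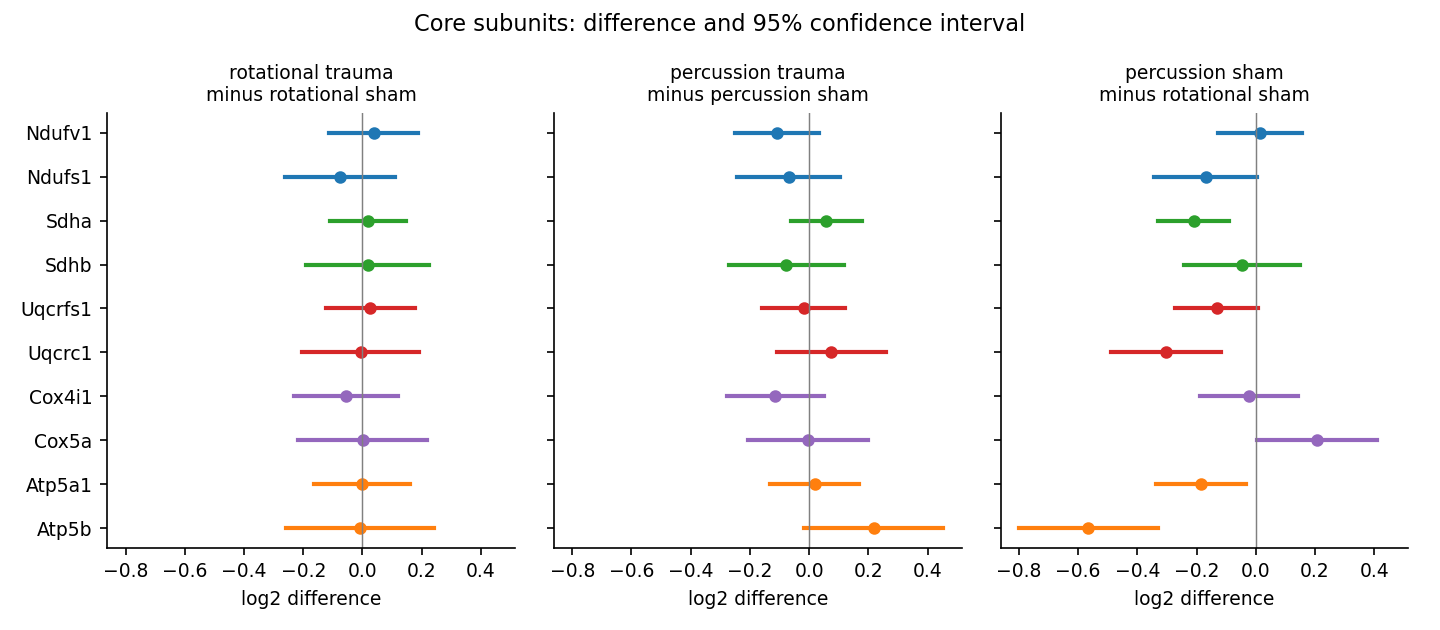
Log2 difference (points) with its 95% confidence interval (lines) for 10 subunits, coloured by complex, in rotational trauma minus sham, percussion trauma minus sham, and percussion sham minus rotational sham. The title calls them core subunits, but Cox4i1 and Cox5a are a regulatory and a small subunit of complex IV. In the 2 trauma comparisons every interval holds 0; between the sham groups those of Sdha, Uqcrc1, Atp5a1 and Atp5b lie below 0 and that of Cox5a above 0, of which Atp5a1 and Cox5a did not pass the adjusted threshold (limma adjusted p = 0.0755 and 0.129).

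Taking both models together, 0 of 87 members passed for the mean of the 2 trauma effects, against 0% of all genes, and at an unadjusted p under 0.05 the shares were again 0 of the members and 8.82% of all genes. The median was -0.025, against -0.0071 over all genes, with 61 of 87 on the lower side (70.1%, against 53.3% of all genes). Ndufb10, an accessory subunit of complex I, had one of the larger means at 0.11, but its second, dimmer probe gave -0.013. Atp5h and Uqcr11, a small subunit of complex III, differed by -0.10 and -0.096. Other probes of Uqcr11 gave -0.078 and 0.014. For the percussion effect minus the rotational effect 0 members passed, against 0% of all genes, and the smallest adjusted p of a member was 0.631. The median of this difference was -0.091, against -0.0012 over all genes, with 72 of 87 on the lower side, against 50.3% of all genes. At an unadjusted p under 0.05 the count was 0 of 87, against 7.99% of all genes. Among the members of smallest unadjusted p, Ndufa12 and Ndufb4l1 had values of -0.30 and -0.30, and Atp5sl one of 0.25. The models lay on separate slides, and a slide effect that differs between trauma and sham positions cannot be told apart from this difference.

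The lean after percussion trauma was shared by most members and differed between the arrays of the group. Against the mean of percussion sham, the median of the 87 members was -0.16, -0.16 and 0.11 on the percussion trauma arrays, and -0.10, 0.13, 0.016 and -0.04 on the percussion sham arrays. Percussion trauma replicates 1 and 2 lay below every sham array, while replicate 3 lay close to the highest sham array. The complexes followed one another: complex I had -0.17, -0.18 and 0.10, complex IV -0.16, -0.21 and 0.15, and complex V -0.12, -0.098 and 0.10 on these trauma arrays. Rotational arrays stayed closer together, with a median of -0.0069, 0.034 and 0.041 in rotational trauma, and 0.019, -0.032 and 0.021 in rotational sham. In the deposited log2 table, which is quantile-normalised, the percussion trauma medians were -0.066, -0.082 and 0.047 and the percussion sham medians -0.035, 0.05, 0.01 and -0.022, the same order of trauma arrays at a smaller size. Meninges markers lay at 2.04, 1.24 and 0.80 on the percussion trauma arrays, and at 0.49, -0.11, 0.29 and -0.63 on the percussion sham arrays, so the array of smallest meningeal shift in the trauma group was the one of highest members, and the part of such tissue was not tested.

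**Figure D4:**
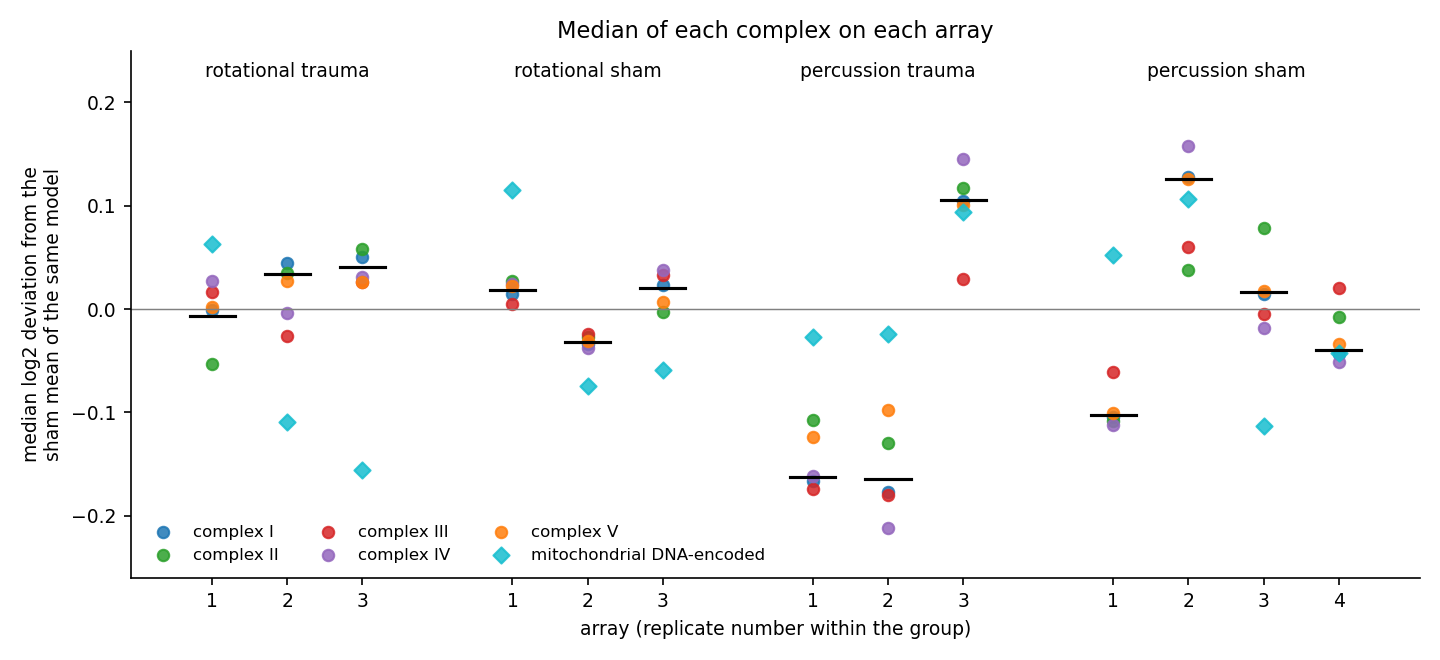
Median log2 deviation of each complex (coloured points), of the 11 genes of mitochondrial DNA (diamonds) and of all 87 members (black lines) from the sham mean of the same model, for each of the 13 arrays. The nuclear complexes sit together within an array, lowest on percussion trauma 1 and 2 (members' medians -0.16 and -0.16) and high on percussion trauma 3 (0.11) and percussion sham 2 (0.13).

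With group means removed, each member was set against the mean of the other 86. The median r over the 13 arrays was 0.847, with 82 of 87 members above 0, against a median of 0.074 for the other genes. The members were brighter, with a median level of 4.19, against -0.79 over all genes. Their median SD within groups was 0.117, against 0.152. The part of brightness in the contrast of r was not tested. These correlations are descriptions: the arrays of a model share a slide, and all members share the scaling of their array. The percussion slide alone (7 arrays) gave a median r of 0.907 and the rotational slide (6 arrays) 0.482. The mean of the members also varied more on the percussion slide, with an SD of 0.11 between arrays after removal of the group means, against 0.026 on the rotational slide. In the deposited log2 table the median r was 0.651 and 75 of 87 members were above 0. Other metabolic genes followed the members less: the median r was 0.194 for 16 genes of the tricarboxylic acid cycle, which feeds the chain with NADH, and 0.332 for 17 genes of glycolysis. The 11 genes of mitochondrial DNA had a median r of 0.284 on the upper-quartile scale and -0.233 in the deposited table.

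Among the members, r was highest for Cox7b (0.973), Ndufb2 (0.968), Atp5o (0.961), Atp5j (0.961) and Ndufb9 (0.958), all small or stalk subunits of complexes I, IV and V. It was below 0 for 5 members, Atp5sl (-0.664), Uqcrc1 (-0.29), Uqcrq (-0.283), Atp5b (-0.249) and Atp5s, a coupling factor of the ATP synthase (-0.061). The complexes had median r of 0.865 (I), 0.856 (II), 0.616 (III), 0.857 (IV) and 0.885 (V), and the assembly and coupling factors 0.399. Members with the ETS letters had a median r of 0.892, against 0.812 without them. With the NRF1 letters it was 0.887, against 0.855 without, with the YY1 letters 0.863, against 0.855, and with the TATA box letters (5 members) 0.887, against 0.855. With the ERR letters, held by 2 members, it was 0.796, against 0.858 without.

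**Figure D5:**
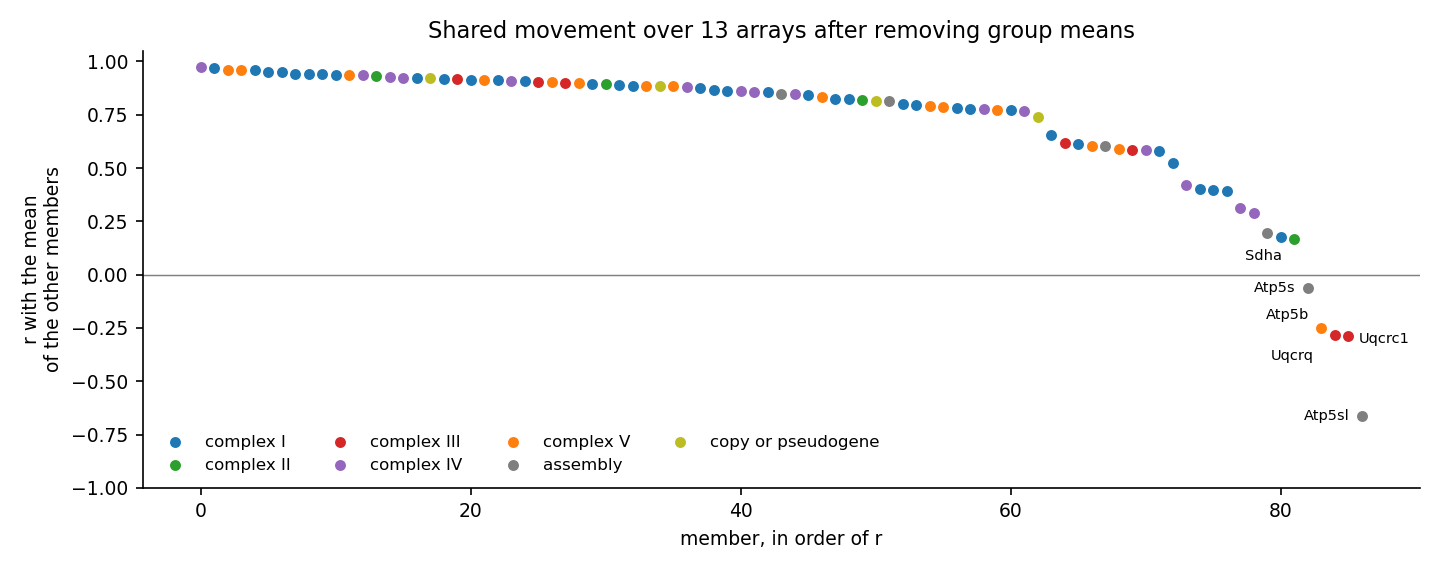
Correlation of each of the 87 members with the mean of the others over 13 arrays, after the group means were removed, in falling order and coloured by complex. Most members lie above 0.75, and Atp5s, Atp5b, Uqcrq, Uqcrc1 and Atp5sl lie below 0.

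The 2 sham groups differed from each other in more members than either trauma group from its sham. Here 9 of 87 members passed (10.3%), against 22.0% of all genes: 2 were higher, as were 11.1% of all genes, and 7 lower, as were 10.9%. The groups did not overlap for 23 members (26.4%), against 40.2% of all genes. The median difference, percussion sham minus rotational sham, was -0.057, against -0.031 over all genes, with 59 of 87 lower (67.8%, against 54.5%). The surgery of the 2 models and the 2 slides cannot be told apart here. All 5 striatal markers also had a lower mean in percussion sham, of which 2 passed, and the median over the 5 was -1.31. A fit without the 2 rotational sham arrays of high striatal markers left 1 array in that group, and its calls are not given on their own. With the second position number on the slide as a block 4 members passed. The first position number is fixed within each group, so its effect could not be separated from the groups. Leaving out rotational sham replicates 1, 2 and 3 in turn left 3, 4 and 3. The sham groups also enter the trauma comparisons above, so a gene low in percussion sham is lifted in the comparison of percussion trauma with it.

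Of the 2 members higher in percussion sham, Uqcrq, a small subunit of complex III, had levels of -2.84, -3.47, -3.72 and -3.01 in percussion sham, against -3.96, -4.75 and -4.16 in rotational sham, a difference of 1.03 (SE 0.23, adjusted p = 0.0111). The trauma arrays of each model lay with their own sham, at -3.53, -3.44 and -3.48 in percussion trauma and at -4.28, -4.22 and -4.71 in rotational trauma. The Uqcrq probe was the dimmest of all members, with a mean level of -3.81 (percentile 17.1 of all genes). The other members of complex III lay at percentiles 91 to 98.9. Ndufa12, an accessory subunit of complex I, had 4.19, 4.46, 4.30 and 4.21 in percussion sham, against 3.99, 3.85 and 3.95 in rotational sham (difference 0.36, SE 0.10, adjusted p = 0.0336). Ndufb10 and Atp5g2 were also higher, by 0.26 and 0.17, without passing (adjusted p = 0.0761 and 0.0953). A second probe gave 0.13 for Ndufb10 and -0.0505 for Atp5g2. The Atp5g2 probes were of similar brightness, with mean levels of 5.34 for the first and 5.21 for the second.

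The 7 lower members came from all 5 complexes. Atp5b fell most, with 2.64, 2.86, 2.99 and 2.97 in percussion sham, against 3.52, 3.40 and 3.37 in rotational sham (difference -0.57, SE 0.11, adjusted p = 0.00541). Its highest percussion sham array lay well below the lowest rotational sham array. Cox6b2, the testis isoform of a complex IV subunit, had 1.22, 1.59, 1.41 and 1.71 in percussion sham, against 1.96, 1.87 and 1.87 in rotational sham (difference -0.42, adjusted p = 0.0146).
Sdha had 3.23, 3.30, 3.31 and 3.32 in percussion sham, against 3.48, 3.54 and 3.47 in rotational sham, a small but narrow difference of -0.21 (SE 0.05, adjusted p = 0.0209). Uqcrc1, a core protein of complex III, had 3.23, 3.44, 3.45 and 3.41 in percussion sham, against 3.67, 3.72 and 3.66 in rotational sham (difference -0.30, adjusted p = 0.0273). In all of these the percussion sham arrays lay below every rotational sham array. Ndufa8 and Ndufb8, accessory subunits of complex I, were lower too, with differences of -0.33 and -0.31 (adjusted p = 0.0285 and 0.0497). Of 23 alternatives, which include the fit that left 1 array in rotational sham, the call was lost in 16 for Ndufb8. It was lost in 8 each for Ndufa12 and Uqcrc1, in 7 for Ndufa8 and in 6 for Sdha. It was lost in 2 for Cox6b2 and in 1 each for Uqcrq and Atp5b. Ccdc127, which shares the start region of Sdha, was lower as well, with a difference of -0.42 (adjusted p = 0.0275). Emc8 and Gabpa, the neighbours of Cox4i1 and Atp5j, differed by -0.14 and 0.11 (adjusted p = 0.158 and 0.297). The other neighbours that passed went both ways. Kin (0.52), Rbm10 (0.44) and Cpsf7 (0.32) were higher, and Mrpl47 (-0.68) and Ik (-0.30) lower. Their members Atp5c1, Ndufb11, Sdhaf2, Ndufb5 and Ndufa2 differed by -0.18, 0.036, 0.049, 0.0022 and -0.10, and none passed. In this comparison 22.0% of all genes passed.

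Several genes had more than 1 probe or more than 1 isoform. There were 18 members with several probes. Both probes of Ndufa13, an accessory subunit of complex I, gave similar differences after percussion trauma, -0.096 and -0.10. Ndufab1, the acyl carrier protein of complex I, did not: its brighter probe, the one used here, gave -0.14 between percussion sham and rotational sham, and its dimmer probe 1.88. Atp5d, the delta subunit of the ATP synthase, gave 0.043 on its brighter and -0.20 on its dimmer probe after rotational trauma. The tissue-restricted isoforms Cox4i2 (lung), Cox6a2 and Cox8b (heart and muscle) and Cox6b2 (testis) were all above background on the 13 arrays. Cox4i2 differed by -0.0083 after rotational and -0.017 after percussion trauma. Atp5g1, Atp5g2 and Atp5g3, which encode the same mature c subunit of the rotor, differed by 0.06, 0.091 and 0.021 after rotational trauma. After percussion trauma they differed by -0.022, -0.056 and 0.037. Second probes gave 0.126 and 0.0549 for Atp5g2, and 0.0933 and 0.0107 for Atp5g3, after rotational and percussion trauma.

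The subunits encoded in mitochondrial DNA gave small differences after trauma. After rotational trauma 10 of these 11 genes had a lower mean, with a median of -0.046, and after percussion trauma 7 of 11 a higher one, with a median of 0.013, and 0 passed in either, also at an unadjusted p under 0.05. Their medians by array were -0.027, -0.025 and 0.094 in percussion trauma, and 0.053, 0.11, -0.11 and -0.043 in percussion sham. Between the sham groups 4 of the 11 passed, all lower in percussion sham, against 10.9% of all genes lower and 22.0% passing in all. The differences were -0.56 for mt-Nd2 (adjusted p = 0.00851), -0.36 for mt-Nd5 (0.0376), -0.31 for mt-Atp6 (0.0203) and -0.28 for mt-Nd4 (0.0325). They encode subunits of complexes I and V.

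One assembly factor outside the naming rule did pass after trauma. Ndufaf6, a factor for the early assembly of complex I, is listed under a provisional name in the array files, with its probe at chr5:24893589-24893648 on the minus strand of rn4. Its levels were 1.26, 1.36 and 1.53 in rotational trauma, against 0.41, 0.47 and 0.72 in rotational sham. All trauma arrays lay above all sham arrays, and the gene rose by 0.85 (SE 0.11, adjusted p = 0.0496). In the percussion model the levels were 0.24, 0.25 and 0.54 in trauma, against 0.27, 0.49, 0.48 and 0.44 in sham (difference -0.075, adjusted p = 0.83). The difference between the 2 effects, percussion minus rotational, was -0.93 and did not pass (adjusted p = 0.158). The call of Ndufaf6 lies at the threshold, and it was lost in 16 of 24 alternatives. The 24 include the fit that left 1 array in rotational sham. Over all 24 the difference ran from 0.78 to 0.95. Of the 10 nuclear respiratory genes listed under such other names it alone passed after rotational trauma, against 4 of 17244 genes in all (0.0232%). Ndufaf6 was chosen because an earlier description of these data named it, so its call here is no independent support. Among the others Cox6b1, Uqcr10 and the inhibitor gene Atp5if1 differed by 0.036, 0.12 and -0.026.

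The further assembly factors and the partners of the chain gave 0 passing genes in both trauma comparisons. At an unadjusted p under 0.05 there were 0 after rotational trauma, against 6.60% of all genes. After percussion trauma, where 11.3% of all genes reached this, 2 of 6 complex III and 2 of 15 complex IV assembly factors did. Of 16 genes of the tricarboxylic acid cycle 1 did, Suclg2 (0.19). In this comparison 51.2% of all genes were lower. Of 15 complex IV assembly factors, 11 were lower after percussion trauma, and Coa5 (0.28) and Coa7 (-0.25) had the smallest unadjusted p. Of 6 complex III assembly factors 5 were lower, with Uqcc2 at -0.30 (SE 0.12, adjusted p = 0.413) and Uqcc3 at -0.23 (SE 0.08, adjusted p = 0.351). Of 14 regulators of mitochondrial biogenesis, 6 were higher and 8 lower after percussion trauma, with Yy1 at 0.17 (adjusted p = 0.47). Ppargc1a, the coactivator that drives many respiratory genes, differed by -0.14 after rotational trauma (adjusted p = 0.885). In glycolysis Hk2, a hexokinase, differed by -0.39 after rotational and by 0.30 after percussion trauma (adjusted p = 0.781 and 0.539).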

How the data were processed

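RNA of 13 frontal cortex samples was hybridised to 1-colour Agilent rat arrays of 62976 spots, 1 array per sample. Per the file headers, the authors read the spots with Feature Extraction 10.5.1.1 of Agilent. In the deposited scanner files the processed signal is a background-subtracted intensity that is not scaled between arrays. The authors also deposited a quantile-normalised table, which holds log2 values and was an alternative here. Control spots and outlier flags were left out, spots of 1 probe were averaged, and log2 of the signal was scaled by each array's 75th percentile. Probes well above background throughout 1 group or more were tested (20004 of 30367). The probe of highest mean stood for its gene (17244 genes). Probe coordinates are those of the files (rn4), and none was converted.

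The labels gave the groups. R 4.3.3 with limma 3.58.1 (tables read by version 1.17.8 of data.table) fitted 1 mean per group over all 13 arrays (9 residual and 2.3 prior degrees of freedom), with 5 two-sided contrasts and Benjamini-Hochberg adjustment over all genes. The script was tested on simulated data. The number of arrays limits the precision. The members, lists and naming rule were chosen with earlier results of these data known. Named were members that passed (up to 8 per direction), otherwise the 4 of smallest unadjusted p per direction, core subunits with Cox4i1 and Cox5a, the isoform sets, and Ndufaf6. One member that the rule names is not reported here. Genes named for their place in the shared movement, for a neighbouring start or for disagreeing probes, and Ndufb2, Ndufb9, Cox7b, Atp5o and Atp5j, were chosen after their values were seen. The alternatives changed scaling, background, filter, probe rule, blocks and arrays.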

Additional observations from a re-analysis of the deposited data

Results flagged for a closer look

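Dixon's 95% criterion was applied only to percussion sham, the group of 4 arrays, so no array of another group could be flagged. The test covered 32 items, the named genes and the median of the members. A single array, each time percussion sham replicate 2, stood far from the 3 others for 4 genes. Its level was 5.49 for Atp5g2 (the others 5.37 to 5.39), 6.16 for Uqcr11 (the others 6.01 to 6.03), 4.74 for Atp5h (the others 4.52 to 4.55) and 4.72 for Ndufb10 (the others 4.34 to 4.35). Chance flags about 1 in 20 groups, and genes measured on 1 array are not independent. On the same array the median of all 87 members was 0.13 above the mean of percussion sham.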

How the results depend on the processing

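The absence of passing members held under the 24 alternatives run for each single trauma comparison and the 23 run for their mean and difference, except without the filter on dim probes. There 1 member passed after percussion trauma (Ndufaf2) and 1 in the difference of the effects (Cox8c), neither well above background on any array. Leaving out 1 array at a time moved the median after percussion trauma over -0.17 to -0.018, the lowest without percussion trauma replicate 3. For the mean of both effects it ran from -0.069 to 0.0017 over the alternatives, so its sign was not settled. Between the sham groups 9 members passed, with a range of 3 to 10 when 1 array was left out. The count was 4 with the second position number on the slide as a block and 6 with the replicate block. A further alternative, without both rotational sham arrays of high striatal markers, was chosen after seeing the data. It left 1 array in that group. Its calls are not given on their own, but it counts among the 23 and 24 alternatives and in the totals that follow. Of 2153 named differences and settings, 1985 kept sign and call, 67 lost and 12 gained the call, 89 uncalled ones changed sign and 0 called ones did. Replicate numbers are shared by trauma and sham, but deviations of same-numbered arrays correlated at 0.109, 0.265 and 0.02 in the rotational and 0.282, -0.023 and -0.006 in the percussion model, so the numbers were not taken as pairs. Between the sham groups the replicate block ended the calls of Ndufa12, Uqcrc1 and Ndufb8.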

Other observations

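Between the sham groups other genes of mitochondrial energy metabolism passed too, with the model and the slide not told apart. In this comparison 22.0% of all genes passed, and 54.5% were on the lower side. Of 14 regulators of mitochondrial biogenesis, 3 were higher in percussion sham: Twnk, the helicase of mitochondrial DNA (0.63), Polrmt, the mitochondrial RNA polymerase (0.38), and Pprc1, a coactivator (0.31). Ppargc1a was lower (-0.32). Of a list of 12 electron carriers and other entry points of the chain, 1 was higher (Dhodh, 0.27) and 4 were lower. The lower ones were Etfb of electron transfer flavoprotein (-0.64), the ubiquinone synthesis genes Pdss2 (-0.35) and Coq5 (-0.33), and Cyc1 (-0.28). Cyc1 encodes cytochrome c1, a subunit of complex III that the naming rule does not catch. Among the assembly factors Cox18 was higher (0.43), while Coa5 (-0.65), Bcs1l of complex III (-0.33), Tmem70 of complex V (-0.30) and Tmem186 of complex I (-0.24) were lower. In the tricarboxylic acid cycle list 1 of 16 genes passed, Pdha1 of pyruvate dehydrogenase (-0.18), and 14 of 16 were on the lower side.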
